A study of Mus musculus with 14 samples.

Results

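The effect of Clpx loss was read in germinal vesicle (GV) oocytes, which are held in meiotic prophase with an intact nucleus. All 8 GV libraries of the 14 oocyte libraries were used, chosen by the labelled stage, and all 18076 genes listed for them were taken. 4 libraries came from Clpxfl/fl mice without Cre, labelled WT, and 4 from Clpxfl/fl; Zp3-Cre mice, labelled CKO. Every animal therefore carried the floxed allele, and the groups differed in both the deletion and the Cre transgene, which cannot be told apart here. Zp3-Cre is driven by the promoter of a zona pellucida gene that is active in growing oocytes, so follicle cells are not its target. The labels give no age and no number of oocytes or animals per library, so p-values measure the spread between these libraries, which may be technical. The other 6 libraries were ovulated oocytes and enter only where named.

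CLPX is an ATP-driven unfoldase of the mitochondrial matrix. It feeds substrates into the chamber of the peptidase CLPP, and on its own it remodels proteins such as the heme synthesis enzyme ALAS. Loss of mitochondrial proteostasis is classically read through matrix chaperones (HSPD1, HSPE1, HSPA9), the protease LONP1 and the integrated stress response, in which the factor ATF4 drives amino acid and stress genes. GV oocytes live on stored maternal transcripts and hold a very large pool of mitochondria.

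Clpx RNA fell, and Mt1 RNA and Gm20594 RNA rose, and no other gene passed edgeR's test. Of 12265 genes with enough counts, 3 had an adjusted p under 0.05 by edgeR's quasi-likelihood test with Benjamini-Hochberg adjustment (0.0245%), 2 of them higher in CKO (0.0163%) and 1 lower (0.00815%). DESeq2 called 41 genes, these 3 included, and edgeR called 6 without CKO library 1 and 6 without CKO library 4. Mt1 encodes a metallothionein, a small cysteine-rich protein that binds zinc and copper. Gm20594 is a short predicted gene whose transcript resembles mitochondrial ribosomal RNA. The classical mitochondrial stress genes, the ATF4 targets and the oocyte's own factors did not pass the test. Levels below are CPM, that is, reads of a gene per 1000000 reads of its library after TMM scaling, and changes are log2 fold changes of CKO over WT. If a library pools cells, which the labels do not settle, fewer cells of a type and less RNA per cell cannot be told apart.

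Total counts were between 26048606 and 28471453 per library. Correlations of log2 CPM between libraries were 0.969 to 0.981 within WT (6 pairs), 0.948 to 0.975 within CKO (6 pairs) and 0.954 to 0.980 between the groups (16 pairs), so the libraries did not separate by genotype as a whole. The summed level of 15 oocyte markers was 28408 to 44442 CPM in WT and 26305 to 56418 CPM in CKO. The sum of 18 granulosa and cumulus markers was 47.9 to 58.8 CPM in WT and 37.9 to 59.9 CPM in CKO. Of them, 13 were under 1 CPM on average, Amh, Foxl2 and Fshr among them. Cyp19a1, at 27.7 to 43.4 CPM across the libraries, was the largest part of that sum, followed by Nr5a2 at 5.17 to 13.6 CPM. For 23 theca, stromal, endothelial and blood markers the sum was 41.7 to 52.0 CPM in WT and 26.2 to 48.1 CPM in CKO, with 19 under 1 CPM. Pecam1 was the highest of these, at 16.2 to 38.8 CPM, and Cyp11a1 was at 3.98 to 9.97 CPM. Hsd3b1 was at 10.3 and 6.13 CPM in WT libraries 2 and 3 and at most 2.18 CPM elsewhere. WT libraries 3 and 4 stood apart for a few genes, named after their values were seen: Stk32a, a kinase gene, was at 62.3 and 84.6 CPM in them and between 0 and 0.609 CPM in the other 6. H2-T22 and H2-Aa, genes of the major histocompatibility complex, were at 34.9 and 63.2 CPM and at 44.4 and 39.5 CPM there, against at most 2.24 and 3.34 CPM elsewhere. Without both libraries, the same 3 genes passed.

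Clpx (gene ID 270166, chromosome 9, 65294251 to 65330658, GRCm38.p6) was measured at 51.5, 33.6, 35.2 and 34.05 CPM in WT libraries 1 to 4. In CKO libraries 1 to 4 it was at 0.563, 0.812, 1.19 and 1.28 CPM. Every CKO library lay far below every WT library, and WT library 1 was the highest of its group. The log2 fold change was -5.33 (SE 0.305, adjusted p 6.48e-06, edgeR), a 40.2-fold lower level. Between 16 and 37 reads per CKO library were still assigned to the gene, against 788 to 1767 in WT. The counts are per gene, so the files do not say whether these reads came from the deleted or the remaining exons.

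Mt1 lies on chromosome 8 (94178883 to 94180327, gene ID 17748), 5316 bases from its close relative Mt2 (gene ID 17750). A window of each gene, 250 bases before to 50 after the start site given in the RefSeq promoter table, is shown because these neighbouring metallothionein genes had such different levels in the same libraries. They are RefSeq sequences of GRCm38.p6, plus strand, at chr8:94178839-94179138 for Mt1 and chr8:94172368-94172667 for Mt2. The Mt2 window is anchored on the first base of the RefSeq gene span, while GENCODE starts Mt2 at base 94172664. The Mt1 window is anchored on base 94179089, 206 bases inside the gene span given above and 7 bases from the start of Mt1 in GENCODE, so its count of matches holds for that start site. Capitals mark the letters TGCNCNC, the core of the metal response element bound by the zinc-sensing factor MTF1, on either strand.
Mt1: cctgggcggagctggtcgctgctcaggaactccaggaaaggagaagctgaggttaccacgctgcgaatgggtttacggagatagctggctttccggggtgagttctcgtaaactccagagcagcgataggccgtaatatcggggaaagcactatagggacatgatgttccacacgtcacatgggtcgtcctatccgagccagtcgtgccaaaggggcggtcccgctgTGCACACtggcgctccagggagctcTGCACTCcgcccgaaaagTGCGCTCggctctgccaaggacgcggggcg
Mt2: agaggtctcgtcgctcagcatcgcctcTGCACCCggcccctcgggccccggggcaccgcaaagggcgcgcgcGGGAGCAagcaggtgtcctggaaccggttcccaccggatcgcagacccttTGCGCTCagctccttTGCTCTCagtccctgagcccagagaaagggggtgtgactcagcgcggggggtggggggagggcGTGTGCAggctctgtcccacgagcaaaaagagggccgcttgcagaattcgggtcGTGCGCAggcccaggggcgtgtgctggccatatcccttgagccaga

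On these start sites, the Mt1 window holds 3 such matches and the Mt2 window holds 6. Of 32851 promoter windows of 300 bases, 7.1% hold at least 3 matches and 0.225% at least 6. The Mt2 window also holds 1 match to TGACNNNGC, the letters of the antioxidant response element, which 12.4% of the windows share. None lies in the Mt1 window, but bases of Mt1 beyond it were not searched, so Mt1 is not shown to lack the element. The TGCNCNC matches of Mt1 begin 23 bases before the start site used and 2 and 20 bases after it. The TGACNNNGC match of Mt2 is not capitalised and does not overlap the other matches. A match is a description of letters, not evidence that a factor binds there. The counts may change with another start site, so they do not rank the genes.

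Mt1 stood at 0.641, 1.66, 2.34 and 1.94 CPM in WT libraries 1 to 4. In CKO libraries it stood at 108, 108, 104 and 78.4 CPM. The groups were separated by a wide gap, with CKO library 4 the lowest of its group and WT library 1 the lowest of all. The log2 fold change was 5.92 (SE 0.354, 95% interval 5.15 to 6.69, adjusted p 6.48e-06, edgeR), a 60.5-fold higher level. The rise rested on 22 to 81 reads per WT library and 1592 to 3244 per CKO library.

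Mt2, which in most tissues is induced together with Mt1, did not have enough counts for the test. It was at 0.0874, 0.397, 0.608 and 0.389 CPM in WT and at 0.317, 0.214, 0.673 and 0.0493 CPM in CKO, and the groups overlapped. On the length-scaled FPKM values, which allow genes to be compared, mean Mt1 was 323 in CKO and 5.93 in WT, while mean Mt2 was 1.08 in CKO and 1.29 in WT. Mt3, the brain metallothionein, was at most 0.217 CPM in any library. Mt4, found in squamous epithelia, had a log2 fold change of -0.13 (SE 0.354, adjusted p 0.951). Of the 3 annotated genes on each side of Clpx, Mt1 and Gm20594, 10 were tested and none passed. Their log2 fold changes ran from -0.47 to 0.30.

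**Figure D1:**
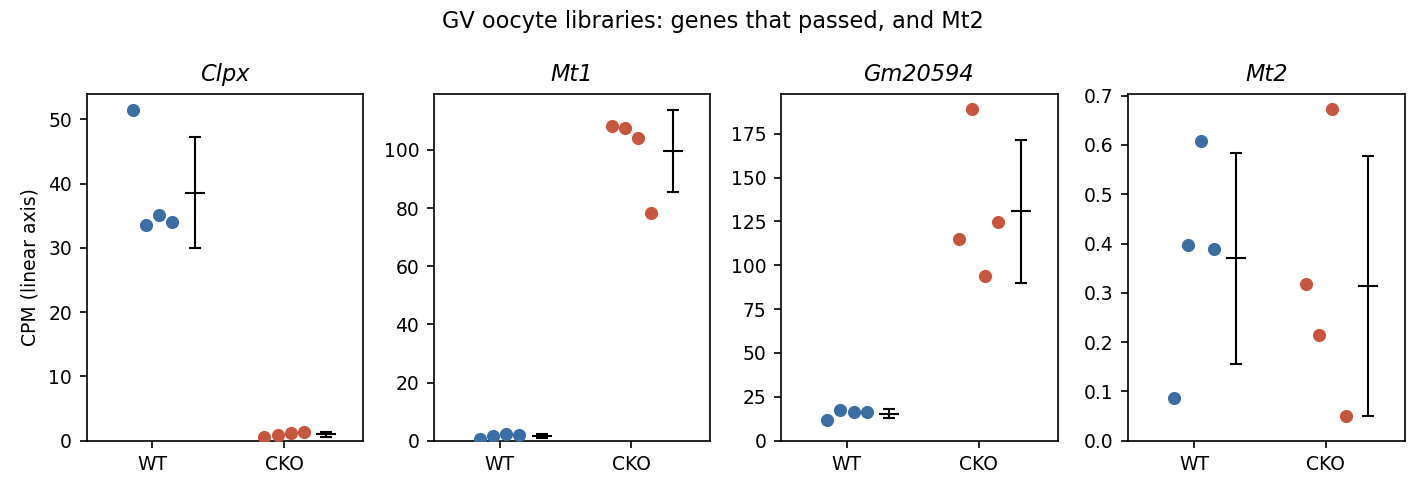
CPM on linear axes for Clpx, Mt1, Gm20594 and Mt2 in the 4 WT and 4 CKO libraries, with 1 point per library and a line at the group mean. Clpx falls to between 0.563 and 1.28 CPM in CKO, Mt1 and Gm20594 rise with no overlap, and Mt2 stays under 0.7 CPM in both groups.

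No gene of zinc handling other than Mt1 passed. Of 22 tested genes of metallothioneins, zinc transport and MTF1 targets, 13 had higher CKO means, and the median log2 fold change was 0.06 against 0.02 over all genes. Mtf1 itself was at 0.11. Slc30a1, the plasma membrane zinc exporter and a textbook MTF1 target, was at 3.79, 5.28, 5.47 and 2.98 CPM in WT and at 7.96, 4.74, 6.28 and 3.79 CPM in CKO. These values overlapped, and the log2 fold change was 0.38 (95% interval -0.26 to 1.02, adjusted p 0.860, edgeR). Zinc importers Slc39a10 and Slc39a6 had log2 fold changes of 0.40 and 0.38, and the vesicular zinc transporter Slc30a3 was at -0.53 (adjusted p 0.834). Slc30a2, another zinc transporter, had the largest change of this list after Mt1, -0.78, with overlap. Its means were low, 3.82 CPM in WT and 2.24 CPM in CKO (adjusted p 0.834, edgeR). Of 15 copper and iron transport genes, 9 had higher means and none passed. The iron storage subunit gene Ftl1 had the largest value, 0.97 (adjusted p 0.732). CKO library 1, at 45.7 CPM, lay below its WT range of 50.2 to 68.4 CPM, and the other 3 CKO libraries lay above it, at 111 to 170 CPM. Of 8 glucocorticoid receptor targets, another class of metallothionein-linked genes, 5 had higher means and none passed.

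Gm20594 (gene ID 100463512) lies on chromosome 6, exon 79817916 to 79818364, plus strand, in the GENCODE annotation of GRCm38. RefSeq gives this gene a shorter span, 79818031 to 79818364, and the annotation behind the counts is not given. The gene's GENCODE transcript of 449 bases aligned over 435 positions with 88.506% identity to the mitochondrial 16S ribosomal RNA gene mt-Rnr2. That alignment ran from rRNA base 645 to 1073 of 1582. The longest identical run was 65 bases. Its annotated coding stretch, transcript bases 336 to 446, is shown because it bears on which reads could be assigned to it, with capitals at the 18 positions that differ from or lie outside the aligned rRNA.
Gm20594: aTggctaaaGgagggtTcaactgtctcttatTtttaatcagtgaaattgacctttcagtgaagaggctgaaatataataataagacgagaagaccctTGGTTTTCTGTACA

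Gm20594 was at 11.7, 17.4, 16.1 and 16.6 CPM in WT and at 115, 189, 94.1 and 125 CPM in CKO. The lowest CKO library was above every WT library by a wide margin, and CKO library 2 was the highest. The log2 fold change was 3.08 (SE 0.244, 95% interval 2.55 to 3.61, adjusted p 1.08e-04, edgeR), an 8.46-fold higher level. Because reads from the rRNA and from this nuclear copy can be alike, the source of these reads is uncertain, and mt-Rnr2 itself was not analysed here. In the ovulated libraries, which share no samples with these, Gm20594 was at 163, 283 and 161 CPM in WT and at 297, 189 and 527 CPM in CKO. The GV change exceeded the ovulated one by 2.35 log2 units (SE 0.469), and this difference did not pass (adjusted p 0.221, edgeR, 14 libraries). The same difference was 0.16 for Mt1 (adjusted p 0.980) and 0.03 for Clpx (adjusted p 0.991), a miss that does not show the effects to be equal.

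**Figure D2:**
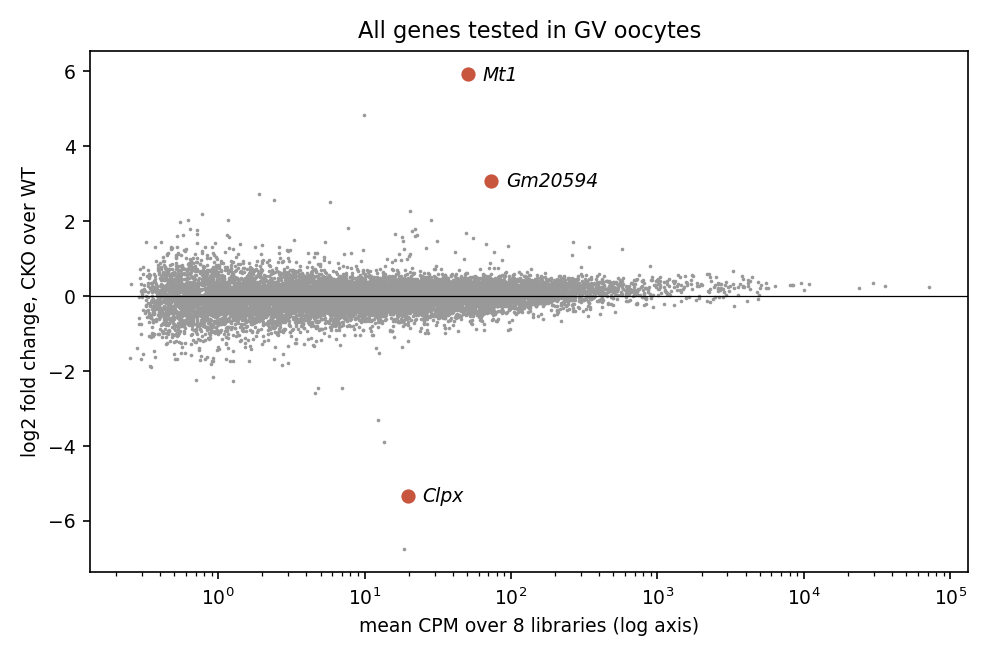
Log2 fold change of CKO over WT against mean CPM (log axis) for the 12265 tested genes, 1 point per gene, with the 3 genes that passed marked. Clpx at -5.33, Mt1 at 5.92 and Gm20594 at 3.08 stand outside the cloud at their level, and wide scatter is seen at low CPM.

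For many genes the data bound the size of any change. In 8188 of the 12265 genes the 95% interval of the log2 fold change lay within 1 of 0, that is, within a 2-fold change either way. The remaining genes, mostly those of low level, could have changed more without passing the test. Unadjusted p-values were under 0.05 in 704 genes (5.74%), 263 higher (2.14%) and 441 lower (3.6%). The groups did not overlap in 468 genes (3.82%), 174 higher (1.42%) and 294 lower (2.4%). Positive log2 fold changes were found in 6483 genes (52.9%).

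The partner and matrix proteostasis genes came next. Clpp, the peptidase of the same complex, was at 12.9, 7.37, 9.69 and 8.55 CPM in WT and at 9.08, 7.09, 11.3 and 13.0 CPM in CKO. The ranges overlapped almost wholly, and the log2 fold change was 0.07 (95% interval -0.48 to 0.62). Lonp1, the other ATP-dependent matrix protease, was at 0.01 (-0.52 to 0.54). The list of mitochondrial proteases also holds Stoml2 and the prohibitin genes Phb and Phb2, which do not encode proteases. Of its 19 tested genes, 8 had higher CKO means. Clpx was the only one to pass, with the others between -0.32 and 0.52.

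Among matrix chaperones, Hspe1, the co-chaperonin of the HSPD1 barrel, was at 69.8, 105, 70.2 and 110 CPM in WT. In CKO it was at 142, 155, 119 and 139 CPM, above every WT library. Its log2 fold change of 0.65 (95% interval 0.21 to 1.08) did not pass (adjusted p 0.731, edgeR). Hspd1, the chaperonin itself, was at 56.1, 41.8, 43.8 and 57.6 CPM in WT and 41.5, 59.8, 45.5 and 79.0 CPM in CKO. It overlapped, with a log2 fold change of 0.18 (-0.30 to 0.66), and Hspa9, the matrix HSP70, was at 0.09 (-0.58 to 0.75). Among 20 tested chaperone and stress genes of the mitochondrion, 12 had higher means, none passed, and the median was 0.06. Sod2, the matrix superoxide dismutase, was at 0.22 (-0.12 to 0.56).

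The integrated stress response showed no called gene. Atf4, its central factor, was at 70.7, 132, 88.1 and 188 CPM in WT and at 128, 145, 60.1 and 222 CPM in CKO. Both groups spread widely over the same range, and the log2 fold change was 0.22 (95% interval -0.60 to 1.03). Ddit3, which encodes CHOP, was at 0.04 (-0.33 to 0.41), a narrow interval. Asns, asparagine synthetase, was at 0.14, and Trib3, a pseudokinase target, was under 1 CPM in every library with a log2 fold change of -1.05 (-2.36 to 0.27). Atf5, another factor of mitochondrial stress, was at most 0.0321 CPM. Of 31 tested genes 11 had higher means and the median was -0.05. The largest change of the list was that of Cebpb, 1.29 with overlap (adjusted p 0.732, edgeR). Its means were 0.694 CPM in WT and 1.69 CPM in CKO. Atf3, at 2.17 CPM in WT and 1.41 CPM in CKO, was at -0.63 without overlap (adjusted p 0.834, edgeR). Ppp1r15a, the stress-induced phosphatase subunit GADD34, was at -0.77 (adjusted p 0.834) and overlapped, with WT library 1 the highest at 65.3 CPM. Without that library its log2 fold change was -0.51.

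Of 23 genes of the endoplasmic reticulum unfolded protein response, 9 had higher means and none passed. The lumen chaperone Hspa5 was at -0.39 (-1.04 to 0.27), and the disulfide isomerase Pdia4 at -0.46 with no overlap (adjusted p 0.834). Of 17 cytosolic heat shock chaperones, 13 had higher means, with a median of 0.20 and none passing. Their regulator Hsf1 was at 64.9 CPM in WT library 1 and between 29.6 and 34.8 CPM in the other WT libraries, against 24.7 to 31.9 CPM in CKO. Its log2 fold change was -0.54 with WT library 1 and -0.22 without it.

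**Figure D3:**
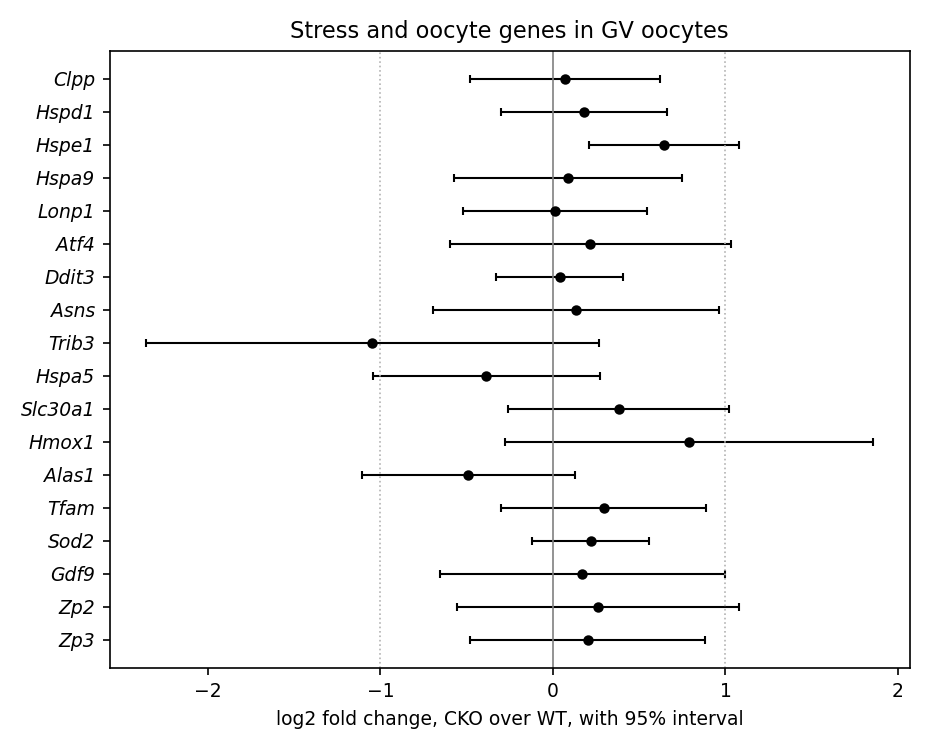
Log2 fold change of CKO over WT with its 95% interval (horizontal bars) for stress, metal and oocyte genes, edgeR on 4 WT and 4 CKO libraries. Hspe1 lies above 0 without passing the adjusted threshold, and the intervals of Clpp, Lonp1, Hspd1, Atf4 and Ddit3 cross 0. Clpx and Mt1 are not drawn.

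Respiratory chain genes mostly had higher CKO means, with no member passing. Of 36 tested complex I subunits, 29 had higher CKO means and the median log2 fold change was 0.13, and all 36 had a 95% interval within 1 of 0. Of 41 subunits of complexes II to V and cytochrome c, 34 had higher means, with a median of 0.24, and the intervals of 39 lay within 1 of 0. Their mean log2 CPM was 6.10, 6.46, 6.16 and 6.46 in WT and 6.53, 6.51, 6.41 and 6.52 in CKO, so WT libraries 1 and 3 were low and the others lay close together. Ndufab1, the mitochondrial acyl carrier protein, was at 132, 204, 151 and 190 CPM in WT and 238, 230, 230 and 207 CPM in CKO. It did not overlap, and its log2 fold change was 0.42 (adjusted p 0.834).

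Cytosolic ribosomal protein genes also had higher means. Of 88 tested, 87 had higher CKO means, none passed, and the median was 0.36, with 64 intervals within 1 of 0. Rpl23, a large-subunit protein gene, was at 24.6, 50.9, 30.3 and 49.6 CPM in WT and 67.1, 66.5, 44.6 and 59.1 CPM in CKO. Again WT libraries 1 and 3 were low, and the groups overlapped. The log2 fold change was 0.61 (adjusted p 0.834). The list's mean log2 CPM was 5.43, 6.23, 5.64 and 6.16 in WT and 6.38, 6.33, 5.94 and 6.29 in CKO, which also overlapped. Leaving out WT library 1 lowered the list's median to 0.22, and leaving out WT library 2 raised it to 0.52.

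These genes are short, and the mean log2 CPM of each list lay above that of all genes. Over all genes, the median log2 fold change was 0.12 in the 20% of genes with the highest levels (from 54.0 CPM) against 0.02 overall. In the next 20%, from 18.0 to 54.0 CPM, it was 0.03. Complex I subunits lay on both sides of 54.0 CPM. For 11220 genes a length was worked out from the deposited counts and FPKM values, which can differ from the annotated transcript length. By this length the median log2 fold change was 0.11 in the shortest 20% and 0.10 in the longest 20%. It lay between -0.05 and 0.02 in the lengths between them. Scaling by total counts in place of TMM moved the median of all genes to -0.14 and the share with positive values to 32.6%. Fits on log2(FPKM + 1) gave -0.09 and 29.2%. With total counts, the list of cytosolic ribosomal proteins had a median of 0.22, complexes II to V one of 0.12 and complex I one of 0.01. All 3 stayed above the median of all genes under that scaling. Under log2(FPKM + 1) complex I was at -0.08, beside -0.09 for all genes. The part of level and scaling in these list values was not tested.

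Of 77 mitochondrial ribosomal protein genes, 51 had higher means, none passed, and the median was 0.10, which became -0.03 under total counts. Mrps33, a small-subunit protein, was at 255, 358, 307 and 341 CPM in WT and 467, 485, 461 and 420 CPM in CKO. All 4 CKO libraries were above all WT libraries, at a log2 fold change of 0.54 (adjusted p 0.834). Of 32 genes that keep or express mitochondrial DNA, 14 had higher means and the median was -0.06. Tfam, which packages that DNA, was at 0.29 (-0.30 to 0.89). Polrmt, the mitochondrial RNA polymerase, was at 47.7, 41.9, 18.8 and 28.3 CPM in WT and 19.2, 14.6, 15.2 and 19.8 CPM in CKO. WT library 3 lay within the CKO range, and the log2 fold change was -0.99 (adjusted p 0.638). Ssbp1, the single-stranded DNA binding protein, was at 0.47 without overlap (adjusted p 0.830).

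Mitochondrial import, dynamics and metabolism held no called gene either. Import had 17 of 24 tested genes with higher means and a median of 0.12, and fusion, fission and mitophagy 15 of 27 with a median of 0.04. Pyruvate oxidation and the tricarboxylic acid cycle had 11 of 26 higher with a median of -0.03, glycolysis and the pentose phosphate pathway 7 of 22 with -0.06, and fatty acid oxidation 6 of 17 with -0.21. Slc2a1, the glucose transporter GLUT1, was at -0.47 and Taldo1, transaldolase, at -0.40 (adjusted p 0.834 for both).

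Heme synthesis is the pathway in which CLPX activates ALAS. The heme list, which also holds Hmox1, had 3 of 14 tested genes with higher means and a median of -0.18. Alas1, the ubiquitous form of the first enzyme of heme synthesis, was at 102, 52.5, 65.2 and 52.6 CPM in WT. In CKO it was at 29.4, 41.0, 67.8 and 55.9 CPM. The groups overlapped, with a log2 fold change of -0.49 (95% interval -1.11 to 0.13). Hmox1, which degrades heme and is among the list's genes with higher means, was under 1 CPM in all libraries, at 0.79 (-0.28 to 1.86). Iron-sulfur cluster assembly had 8 of 16 genes higher and a median of 0.01. Of 26 antioxidant genes, 15 were higher and the median was 0.05. Gclm, the modifier subunit of glutathione synthesis, was at 0.57 without overlap, and Txn1, cytosolic thioredoxin, at 0.52 with overlap (adjusted p 0.834 for both).

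**Figure D4:**
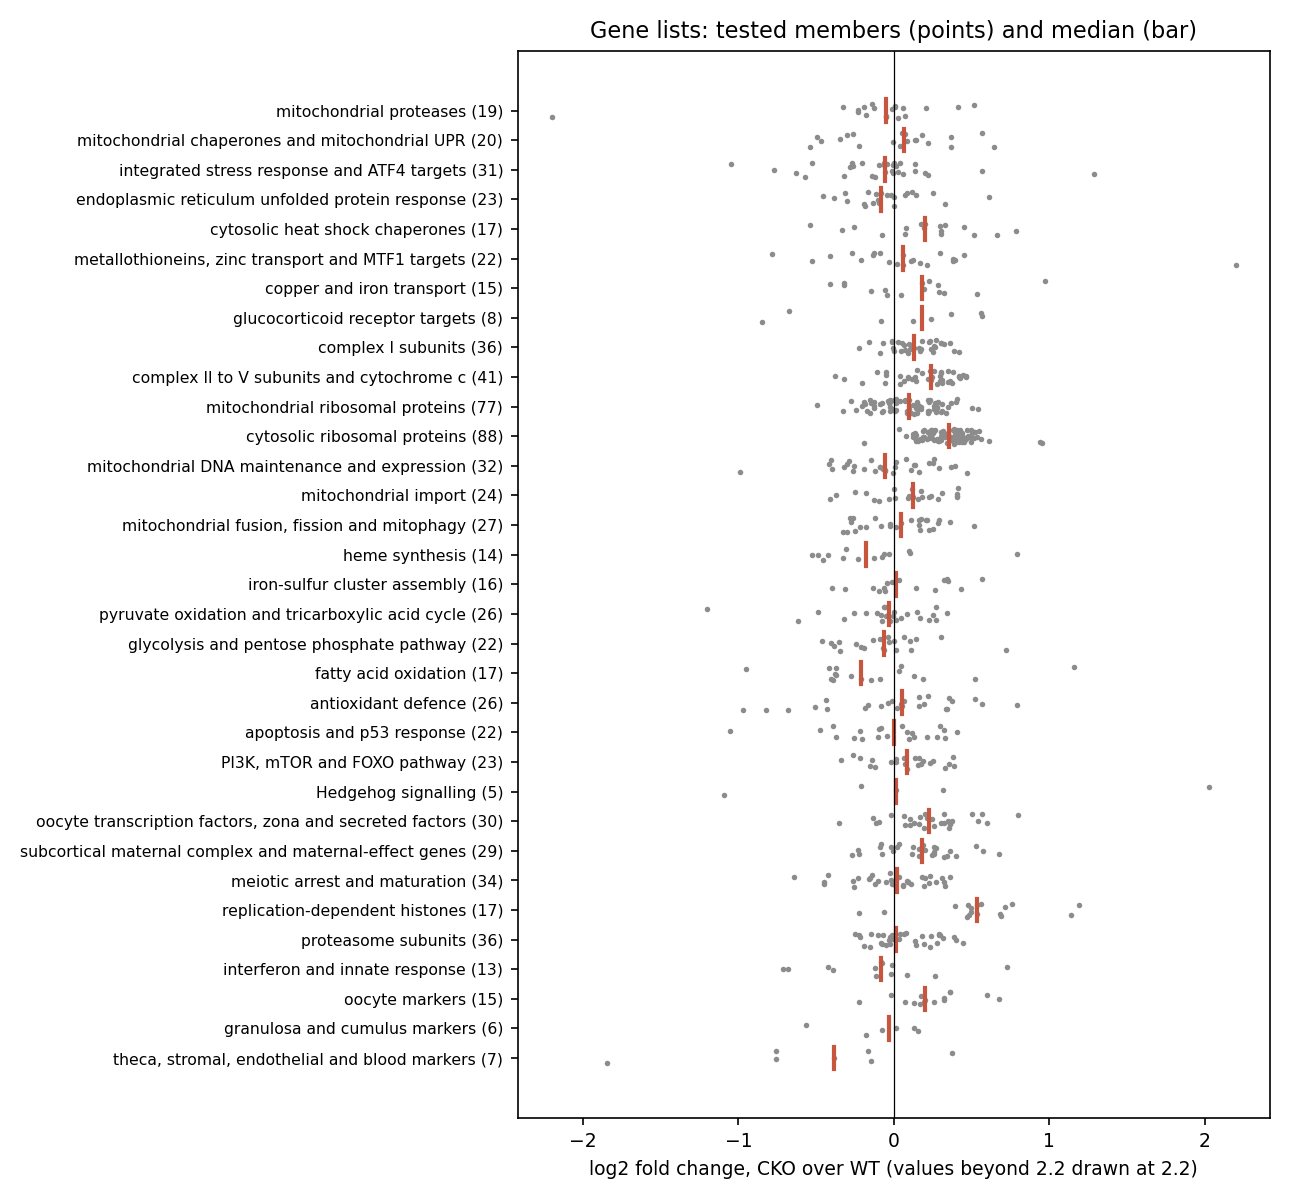
Log2 fold change of CKO over WT for the tested members of each gene list (points) with the list's median (bar), values beyond 2.2 drawn at 2.2. Medians run from -0.39 for theca, stromal, endothelial and blood markers to 0.54 for replication-dependent histones, and Clpx and Mt1 are the only members that passed.

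No gene of the oocyte's own programme passed. Of 30 tested transcription factors, zona proteins and secreted factors, 25 had higher CKO means and the median was 0.23. Gdf9, an oocyte growth factor that acts on granulosa cells, had a log2 fold change of 0.17 (-0.66 to 1.00), and zona genes Zp2 and Zp3 were at 0.26 and 0.20. All 3 turned slightly negative under total counts or log2(FPKM + 1). Their highest values were in CKO library 4, which also had the lowest TMM factor of the 8, 0.733. Dazl, a translational regulator of germ cells, was at 479, 794, 470 and 854 CPM in WT and 718, 1659, 791 and 1358 CPM in CKO. It overlapped, at 0.80 (adjusted p 0.834).

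Of 29 genes of the subcortical maternal complex and maternal-effect factors, 21 had higher means, with a median of 0.18. Of 34 genes of meiotic arrest and maturation, 18 were higher and the median was 0.02. Cdc20, an activator of the anaphase-promoting complex, was at -0.64 with overlap (adjusted p 0.834). The PI3K, mTOR and FOXO pathway, which controls follicle activation, had 16 of 23 genes higher and a median of 0.09, and apoptosis and the p53 response had 11 of 22 and 0.00. Proteasome subunits had 18 of 36 and 0.02.

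Replication-dependent histone genes had the highest list median, 0.54, from 17 tested of 57 listed, with 15 higher and none passing. H2bc4 was at 101, 92.2, 120 and 101 CPM in WT and at 139, 148, 194 and 199 CPM in CKO. All CKO libraries were above all WT libraries, at 0.72 (95% interval 0.32 to 1.11, adjusted p 0.583, edgeR). Histone genes share near-identical coding sequence, so reads can be split between copies and single values are uncertain. Their mean log2 CPM was 0.35, 0.88, 0.24 and 0.59 in WT and 1.01, 0.74, 1.43 and 0.86 in CKO, and CKO libraries 2 and 4 lay below WT library 2. Only 2 of the 17 intervals were within 1 of 0.

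**Figure D5:**
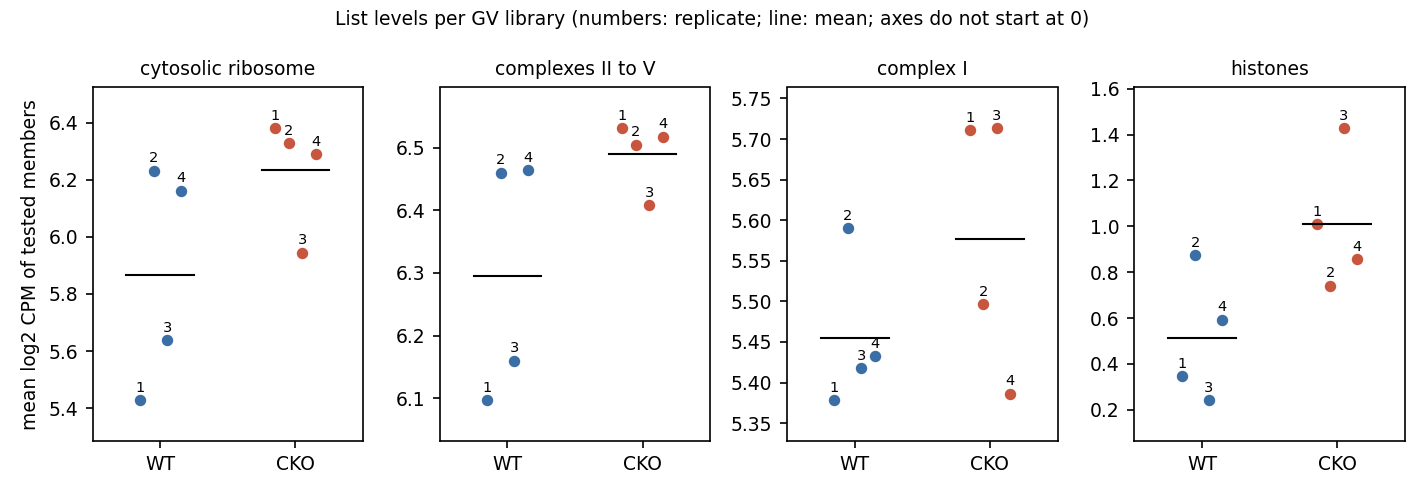
Mean log2 CPM of the tested members of selected gene lists in each GV library (numbers mark replicates, lines mark group means, axes do not start at 0). For cytosolic ribosomal proteins WT libraries 1 and 3 are low at 5.43 and 5.64 and the groups overlap, as they do for the histone genes.

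Below the threshold, the genes with the smallest p-values among those of at least 10 CPM were as follows, given as values only. Of these, DESeq2 called Gm29797, Gli3, Gm4907, Fbxo16 and H2bc4 on the higher side and Myo1e, Slc44a4, Cd200, Gtf2ird1, Cxcr3 and Fmo5 on the lower side. Gm29797, a predicted gene, was at 22.5, 27.8, 22.9 and 27.7 CPM in WT and 44.0, 58.2, 67.1 and 59.5 CPM in CKO. The groups were well apart, at a log2 fold change of 1.18 (SE 0.181, adjusted p 0.0836, edgeR). It passed when CKO library 1 was left out (adjusted p 0.0223) and when no filter on low counts was used (adjusted p 0.0494).

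Gli3 encodes a transcription factor that acts downstream of Hedgehog ligands. It was at 6.21, 16.98, 8.57 and 13.0 CPM in WT and 47.1, 49.9, 64.7 and 20.6 CPM in CKO. CKO library 4 lay closest to WT, and the groups did not overlap. Its log2 fold change was 2.03 (SE 0.370, adjusted p 0.243, edgeR), with an adjusted p of 0.0151 when CKO library 4 was left out. The other tested Hedgehog genes were Ptch1 at -1.09, Sufu at -0.21, Gli2 at 0.01 and Cdon at 0.32, of 13 listed, and none passed.

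Gm4907 was at 10.4 CPM in CKO library 1, within the WT range of 8.65 to 11.5 CPM, and at 33.7 to 46.8 CPM in the other CKO libraries. Its log2 fold change was 1.79 (adjusted p 0.416), and 2.09 with an adjusted p of 0.00176 without CKO library 1. Csmd3, a large membrane protein gene, was at 1.00, Fbxo16, an F-box gene, at 0.99, and Prex2, a Rac exchange factor, at 0.76, all without overlap. Rnf2, the catalytic E3 ligase of Polycomb complex 1, was at 0.62, the prefoldin subunit Pfdn5 at 0.56 and Nat8f2 at 0.75, also without overlap. The glutathione transferases Gstp1 and Gstp2 were at 1.18 and 1.47 with overlap, and, as near-identical copies that can share reads, are uncertain.

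On the lower side, Myo1e, a class I myosin, was at 28.1, 23.7, 25.2 and 27.3 CPM in WT and 14.6, 9.27, 7.44 and 9.07 CPM in CKO. The groups were clearly apart, at -1.37 (SE 0.228, adjusted p 0.150, edgeR), and the gene passed without CKO library 1 (-1.60, adjusted p 0.0139). The other 11 lower genes also had no overlap and did not pass. They included surface molecules and receptors: Slc44a4 (-0.94), Cd200 (-1.10), Cxcr3 (-0.98), S1pr3 (-0.73), Il1r2 (-0.71) and the ectonucleotidase Entpd1 (-0.84). The transcriptional regulator Gtf2ird1 (-0.67) and the flavin monooxygenase Fmo5 (-0.86) were also among them.

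WT library 1 was high for several of these. Nfkbia, the inhibitor of NF-kappaB, was at 67.2, 42.3, 37.1 and 35.2 CPM in WT and 23.9 to 27.6 CPM in CKO, a log2 fold change of -0.85 that was -0.60 without WT library 1. Mgat1, a glycosyltransferase of the Golgi, was at 37.1 CPM there and at 11.3 to 13.0 CPM in the other WT libraries, against 4.86 to 10.2 CPM in CKO. Its log2 fold change of -1.51 was -0.93 without that library. Dusp1, an immediate-early phosphatase, was at 101 CPM in WT library 1 and moved from -0.67 to -0.36. Ddx58, the RNA sensor RIG-I, was at -0.68 with its highest value in WT library 3, and the interferon list had 3 of 13 genes higher with a median of -0.08.

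The 5 most abundant genes, Clec16a, Hexdc, Hddc3, Dnajc14 and Spin1, had log2 fold changes of 0.23 to 0.35 and overlapped. Clec16a was lowest in both groups in library 3 (41280 CPM in WT, 41464 CPM in CKO) and highest in library 4 (89063 and 119509 CPM), as were Hexdc, Hddc3 and Dnajc14. Spin1 was also highest in library 4 in both groups, and lowest in library 1 (7856 and 9259 CPM). Granulosa and cumulus markers had 3 of 6 tested genes higher with a median of -0.03, and the theca, stromal, endothelial and blood markers 1 of 7 with a median of -0.39, at levels where the intervals are wide.

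The number of genes with at least 1 count was 15691, 15709, 16031 and 15528 in WT (mean 15740 ± 211, SD, n = 4). In CKO it was 15351, 15145, 15802 and 15051 (mean 15337 ± 334, SD, n = 4). CKO library 3 lay within the WT range and the other 3 below it. The difference of -402.5 genes gave p = 0.114 in a two-sided exact permutation test, in which the smallest possible value was 0.0286. By the number of genes expected at equal depth (rarefaction), CKO differed from WT by -374 genes (exact permutation p = 0.171). Leaving out each library other than CKO library 3 gave differences of -473 to -305 genes and exact permutation p-values of 0.114 to 0.229. Without CKO library 3, the one CKO library within the WT range, the difference was -557 genes, and the groups no longer overlap by that choice, so no p is read from it.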

How the data were processed

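RNA from mouse oocytes was copied and amplified with SMART-seq chemistry, per the labels' protocols. The authors deposited 1 table of read counts and 1 of FPKM values per stage, with a column per library. The deposited counts are estimated counts per gene, since 14.7% to 16.1% of a library's values were fractional. The deposited FPKM values relate counts to transcript length and library depth, as the authors computed them. Genome build mm10 is named in the submitters' processing notes, and the aligner, counter and annotation are not given in the sources used here.

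Estimated counts were rounded to whole counts and tested in R 4.3.3 with edgeR 4.0.16: filterByExpr with a minimum count of 10, TMM scaling, a robust quasi-likelihood fit of genotype alone, and Benjamini-Hochberg adjustment over the 12265 genes tested, with a threshold of 0.05. Alternatives used DESeq2 1.42.0, limma 3.58.1 (voom, and log2(FPKM + 1) or log2(FPKM + 0.1)), other scalings and filters, all 14 libraries, a replicate block, and each library left out. Leaving out WT libraries 3 and 4 together was chosen after seeing the data. The main edgeR fit was also run on counts simulated with known changes, and the alternatives were not. Gm20594 was aligned with blastn 2.17.0. Gene IDs matched RefSeq for 18027 of 18076 genes.

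Named genes were those that passed, a list of sentinel genes, the 12 higher and 12 lower genes with the smallest p at a mean of at least 10 CPM, up to 2 members per list with an unadjusted p under 0.05, the 5 most abundant genes, and up to 3 annotated neighbours on each side of a gene that passed. Some list members outside this rule are also named. The 34 gene lists and this rule were chosen with earlier results of these data known. Replicates within a group were compared and differed far beyond counting error. The SE of a fold change was worked out from its log2 value and the F statistic of its quasi-likelihood test. Intervals were built from that SE with the t distribution, so they are approximate, and 95% refers to single genes. Reads are without molecular identifiers, so they are not independent molecules.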

Additional observations from a re-analysis of the deposited data

Results flagged for a closer look

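In 236 groups of 4 libraries (a named gene or a list mean in 1 genotype), 12 held a library whose gap to its nearest neighbour took up more of the group's range than Dixon's 95% critical value, and chance gives about 1 in 20. WT library 1 was the high library for Clpx (51.5 CPM, next 35.2), S1pr3 (42.2, next 31.5), Mgat1 (37.1, next 13.0) and Hsf1 (64.9, next 34.8). In WT library 3, Gtf2ird1 was low at 87.7 CPM (next 100.8), and the mean log2 CPM of glycolysis and pentose phosphate genes was low at 4.39 (next 4.68). The mean log2 CPM of oocyte markers was high in WT library 4, at 10.10 (next 9.66).

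In CKO library 4, Mt1 was low at 78.4 CPM (next 104) and Timm8b, a carrier of the mitochondrial intermembrane space, was low at 64.5 CPM (next 86.9). In CKO library 1, Gstp1 was low at 62.8 CPM (next 114), Rheb, an activator of mTORC1, was low at 105 CPM (next 122), and Pdcd7, a neighbour of Clpx, was high at 199 CPM (next 126).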

How the results depend on the processing

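Clpx, Mt1 and Gm20594 passed under every alternative run, in the same direction. The number of genes that passed was 41 with DESeq2 (15 higher, 26 lower) against 3 with edgeR, and 3 or 4 under the other scalings, filters and fits. Leaving out 1 library gave 3 to 6 genes: 6 without CKO library 1 (Gm29797, Gm4907 and Myo1e were added), 6 without CKO library 4 (Gli3, LOC105245578 and LOC115488129) and 4 without WT library 2 (Rgl2). The difference in genes detected ranged from -557 to -305 with 1 library left out. 

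Replicate numbers gave no clear pairing. The correlation of deviations between same-numbered WT and CKO libraries was -0.25, 0.20, 0.33 and 0.33. WT library 3 and CKO library 3 correlated best with each other. CKO library 2 and WT library 4 also correlated best with their own number, and the remaining libraries did not. Whether libraries of the same number shared a batch was not tested. With the number as a block, 3 genes passed.

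Small changes near 0 changed sign under some alternatives, and none of them passed under any. Under total counts the log2 fold changes that turned were Clpp -0.13, Hspd1 -0.0407, Hspa9 -0.13, Lonp1 -0.16, Ddit3 -0.0981, Gdf9 -0.0689, Zp3 -0.0349. Under log2(FPKM + 1) the log2 fold changes that turned were Clpp -0.10, Hspd1 -0.0171, Hspa9 -0.15, Lonp1 -0.19, Atf4 -0.00317, Ddit3 -0.14, Asns -0.0464, Gdf9 -0.10, Zp2 -0.014, Zp3 -0.0407. Under log2(FPKM + 0.1) the log2 fold changes that turned were Clpp -0.11, Hspd1 -0.0171, Hspa9 -0.16, Lonp1 -0.22, Atf4 -0.00357, Ddit3 -0.15, Asns -0.16, Gdf9 -0.10, Zp2 -0.0141, Zp3 -0.0408. Without WT libraries 3 and 4 the log2 fold changes that turned were Clpp -0.00104, Lonp1 -0.078. Under limma-voom the log2 fold changes that turned were Lonp1 -0.0573, Asns -0.00899. With a minimum mean of 10 CPM the log2 fold changes that turned were Lonp1 -0.0309. With the replicate block the log2 fold changes that turned were Lonp1 -0.0542, Asns -0.00454. With 1 library left out, those that changed sign at least once ranged as follows: Clpp -0.0689 to 0.24, Hspd1 -0.0245 to 0.30, Hspa9 -0.30 to 0.28, Lonp1 -0.25 to 0.18, Atf4 -0.10 to 0.52, Ddit3 -0.0774 to 0.0893, Asns -0.28 to 0.37, Gdf9 -0.19 to 0.37, Zp2 -0.0313 to 0.47, Zp3 -0.0111 to 0.37, Clec16a -0.0283 to 0.47, Hexdc -0.00978 to 0.46, Dnajc14 -0.0229 to 0.41, Mt4 -0.32 to 0.13.

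Over the 34 lists and all alternatives, 57 of 680 list medians moved by more than the spread between libraries, 50 of them under total counts or the FPKM fits. Intervals were widest for genes of low level: 20.2% of the 2453 genes between 0.251 and 1.75 CPM had a 95% interval within 1 of 0, against 87.8% of the 2453 genes from 54.0 CPM.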

Other observations

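Without passing the test, 18 genes had a log2 fold change beyond 2 in either direction, with Gli3, Stk32a, H2-T22 and H2-Aa, described above, among them. In 12 of the 18 the groups overlapped, and 5 had a mean of at least 10 CPM. They were chosen for their size after the values were seen. Rgl2, a Ral exchange factor gene, was at 7.28, 4.59, 13.9 and 21.4 CPM in WT and at 2.78, 2.18, 1.83 and 1.87 CPM in CKO. Its groups did not overlap, its log2 fold change was -2.44, and its adjusted p was 0.201 by edgeR. It passed with DESeq2 (adjusted p 3.3e-05), with total counts in place of TMM (0.0293) and without WT library 2 (0.0389). Of the 18, DESeq2 also called Stk32a, Il17b, Gli3, Hmgn3, Ptgds, LOC105245578, Tcf4 and Hormad1, and not the others. Genes high mainly in WT libraries 3 and 4 or in 1 CKO library are thus among its calls. Csrp1, a LIM domain gene, was at 4.25, 0.614, 12.5 and 14.0 CPM in WT and at 0.810, 0.940, 1.22 and 2.27 CPM in CKO (-2.59, adjusted p 0.638). Il17b, a cytokine gene, was at 14.9 and 13.4 CPM in WT libraries 3 and 4 and between 0.982 and 2.59 CPM in the other 6. WT libraries 3 and 4 were thus the high ones for Rgl2, Csrp1 and Il17b, as they were for Stk32a, H2-T22 and H2-Aa.

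Some large values came from 1 CKO library. LOC115490200 was at 74.5 CPM in CKO library 2 and at most 0.759 CPM elsewhere, and LOC115490174 was at 115 CPM in CKO library 4 and at most 12.3 CPM elsewhere. Hmgn3, a nucleosome-binding protein gene, was at 11.4 CPM in CKO library 3 and between 0.554 and 2.22 CPM in the other 7. Ptgds, a prostaglandin D synthase gene, was at 1.69, 5.98, 22.3 and 9.36 CPM in CKO, with WT between 0.874 and 2.68 CPM, so 3 CKO libraries were above every WT library.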
